A study of Mus musculus with 6 samples.

Results

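The genes described here are 10 transcription factors and cofactors of red cell and megakaryocyte fate: Gata1, Gata2, Klf1, Gfi1b, Tal1, Zfpm1, Nfe2, Lmo2, Ldb1 and Runx1. They were taken by gene symbol alone, and all 10 were found among the 35869 symbols of the expression tables. Their RNA was measured in cultured mouse acute myeloid leukaemia cells transformed by a retrovirus carrying the MLL-AF9 fusion oncogene. Every library came from cells with floxed Chaf1b, the gene for a subunit of CAF-1, the histone chaperone that places histones on newly copied DNA, together with CreERT2, a recombinase activated by oestrogen receptor ligands, and all grew with stem cell factor (100 ng/mL), interleukin-6 (50 ng/mL) and interleukin-3 (20 ng/mL). Cells given B-estradiol for 48 hours made up the 3 knockout (KO) libraries and cells given ethanol vehicle the 3 control (WT) libraries, so WT cells carry the same floxed alleles and CreERT2. The deletion and the ligand cannot be told apart in this design, and the clone or culture behind each library was not stated in the labels, so p-values measure only the spread among these libraries, which may be technical.

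GATA1 and GATA2 are zinc finger proteins that bind the same DNA letters. GATA2 serves stem and progenitor cells and mast cells, and GATA1 takes over as red cells and megakaryocytes mature. GATA1 works with the cofactor FOG1 (encoded by Zfpm1) and in a complex with the helix-loop-helix protein TAL1 and the bridging proteins LMO2 and LDB1. KLF1 activates globin and other red cell genes through CACC boxes. GFI1B is a repressor needed for both lineages, NFE2 is the large subunit of a leucine zipper dimer needed for platelet formation, and RUNX1 serves stem cell emergence and megakaryocyte maturation.

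Values are TPM, a transcript abundance scaled to one total per library, which corrects for gene length and allows levels of different genes to be compared, but does not show how many reads stand behind a value. Differences are KO minus WT on log2(TPM + 1), tested with limma over 13575 genes (those reaching 1 TPM in 3 or more libraries); a gene was called at an adjusted p under 0.05. This scale understates changes of weakly expressed genes. Chaf1b itself was at 14.2 to 17.7 TPM in KO and 48.6 to 50.6 TPM in WT. Among genes listed for the labelled cell type, Ptprc, the pan-leukocyte marker CD45, was at 25.6 to 29.7 TPM over the 6 libraries. Spi1 was at 123.5 to 152.1 TPM and Hoxa9 at 165.6 to 218.8 TPM. Others of that list were low, with Csf3r at 4.2 to 5.0 TPM and Csf1r at 0.4 to 1.4 TPM. KO replicate 1 and WT replicate 1 stood apart from the other libraries of their groups. Pearson's r over tested genes, on log2(TPM + 1), was 0.991 and 0.992 between KO replicate 1 and the other KO libraries, and 0.984 and 0.986 between WT replicate 1 and the other WT libraries, against 0.998 between replicates 2 and 3 of either group. Genes are not independent replicates, and these r values are descriptions.

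The promoters of the 4 members that were called higher in KO are shown so that the letters bound by GATA factors and KLF1 can be seen in them. Sequences are from RefSeq on GRCm38.p6, the assembly that mm10 names, written 5′ to 3′ on the strand of the gene. The windows cover up to 250 bases before an annotated start, without bases that GENCODE M21 annotates as UTR. Capitals mark a GATA hexamer (the 4 forms searched were AGATAA in the first place, AGATAG in the second, TGATAA in the next and TGATAG in the last) or a CACC box (CCNCACCC) on either strand.
Gata1 (chrX:7967911-7968160, minus strand): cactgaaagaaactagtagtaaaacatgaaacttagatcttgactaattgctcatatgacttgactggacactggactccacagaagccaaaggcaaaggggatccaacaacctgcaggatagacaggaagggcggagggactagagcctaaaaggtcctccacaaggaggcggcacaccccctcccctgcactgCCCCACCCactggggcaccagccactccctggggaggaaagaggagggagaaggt
Klf1 (chr8:84901732-84901927, plus strand): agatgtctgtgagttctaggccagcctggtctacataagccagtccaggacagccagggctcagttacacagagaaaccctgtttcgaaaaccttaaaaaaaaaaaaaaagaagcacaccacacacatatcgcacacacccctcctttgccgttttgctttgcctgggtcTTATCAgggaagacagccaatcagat
Gfi1b (chr2:28621983-28622232, minus strand): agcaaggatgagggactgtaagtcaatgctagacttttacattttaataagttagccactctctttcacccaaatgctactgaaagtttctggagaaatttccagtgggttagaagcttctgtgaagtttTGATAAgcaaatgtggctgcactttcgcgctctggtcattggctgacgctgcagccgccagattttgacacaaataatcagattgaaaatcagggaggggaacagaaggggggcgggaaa
Runx1, second start (chr16:92697330-92697579, minus strand): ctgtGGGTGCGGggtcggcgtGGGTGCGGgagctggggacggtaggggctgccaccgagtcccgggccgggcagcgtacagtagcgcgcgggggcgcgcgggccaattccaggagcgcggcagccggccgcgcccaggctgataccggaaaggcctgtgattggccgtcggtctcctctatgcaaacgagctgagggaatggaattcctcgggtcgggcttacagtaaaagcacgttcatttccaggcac

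Klf1 and Gfi1b each held 1 GATA hexamer. That of Klf1 was TTATCA (the reverse strand of TGATAA) from base -80, and that of Gfi1b was TGATAA from base -120. Bases are counted back from the annotated start that each 250-base window precedes. Gata1 held 1 CACC box from base -55 and no GATA hexamer in this window. The Gata1 start used, at base 7967910, lies inside the gene's span of 7959260 to 7976663. No window before base 7976663 was read. The second Runx1 start held 2 CACC boxes on the reverse strand, from bases -246 and -229, and the first start held neither. Windows of 250 bases could be read for 8 of the 10 members, 13 windows in all; Nfe2 and Lmo2 were not among them. A GATA hexamer was in 4 of the 13 windows (also Tal1 and Ldb1), and 26.5% of all 32851 RefSeq promoter windows of that length hold one. A CACC box was in 3 of the 13 windows, against 14.9% of all. The RUNX letters, TGTGGT in one form and TGCGGT in another, were in 1 window, that of Klf1 (18.6% of all), and the E-box CAGNTG, the kind of site that TAL1 binds, in 3 (44.8% of all; those of Klf1, Ldb1 and Runx1). All letters were searched on both strands. A match is a description of the letters only, and binding was not measured.

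Of the 10 members, 4 were higher in KO, none was called lower, 5 were tested without a call, and Tal1 was listed at 0 and could not be tested. The members called were Gfi1b, Gata1, Klf1 and Runx1. Over all genes tested, limma called 12.9% higher and 6.11% lower, and the count of 4 higher among 9 tested members is to be read against that share. Gfi1b, Gata1 and Klf1 had means between 1 and 10 TPM, where 19.0% of tested genes were higher and 1.33% lower. Gfi1b reached the 1 TPM filter through the KO libraries alone. Gata2 was lower at an unadjusted p of 0.043 and was the only member below 0.05 without adjustment that limma did not call. The share of higher calls among all calls was 67.8% with TPM as deposited, 43.9% under quantile normalization and 46% with library medians set equal; the same 4 members were called higher under both of these scalings. The call of all 4 was lost when KO replicate 2, KO replicate 3, WT replicate 2 or WT replicate 3 was left out, and held without KO replicate 1 or WT replicate 1; the values stand with each gene.

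**Figure D1:**
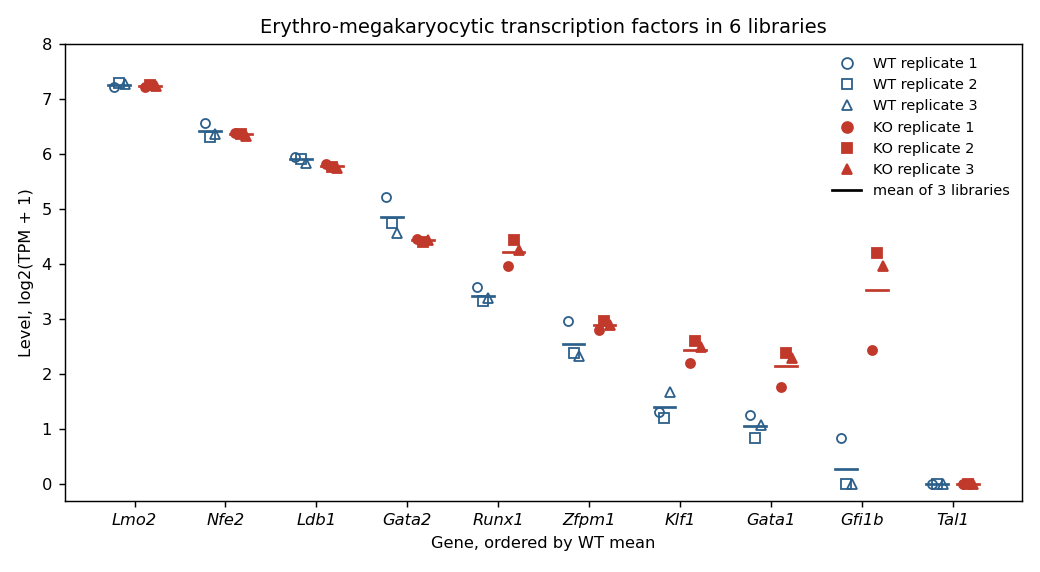
Level of each member in each library as log2(TPM + 1), ordered by the WT mean, with 3 WT libraries (open) and 3 KO libraries (filled) and a line at each group's mean. Gfi1b, Gata1, Klf1 and Runx1 have no overlap between groups with KO above, Gata2 and Ldb1 have none with KO below, and Tal1 lies at 0 throughout.

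The order of the levels was led by the bridging proteins and NFE2. In WT the mean was 151.8 TPM for Lmo2, 84.7 TPM for Nfe2, 59.0 TPM for Ldb1, 28.4 TPM for Gata2, 9.80 TPM for Runx1, 5.0 TPM for Zfpm1, 1.67 TPM for Klf1, 1.10 TPM for Gata1, 0.267 TPM for Gfi1b and 0 for Tal1. Lmo2 lay above 89.5% of tested genes in WT and Gata1 above 6.50%. Neighbours from Lmo2 down to Klf1 in this order had separate library values, while Klf1 and Gata1, Gata1 and Gfi1b, and Gfi1b and Tal1 overlapped. In KO the first 5 places held the same genes, but Gfi1b, at 12.1 TPM, stood sixth in place of ninth. The KO library values of Gata2 and Runx1 overlapped, as did those of Runx1 and Gfi1b, of Gfi1b and Zfpm1, and of Klf1 and Gata1. Gfi1b lay above 43.9% of tested genes in KO and above 0.913% in WT.

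Gfi1b had the largest difference of the members. This gene (mm10 chromosome 2, 28609450 to 28621982, minus strand) encodes a zinc finger repressor that recruits the LSD1 and CoREST proteins. It was at 4.4, 17.4 and 14.6 TPM in KO replicates 1, 2 and 3, and at 0.8, 0.0 and 0.0 TPM in WT replicates 1, 2 and 3. All KO libraries lay above all WT libraries, KO replicate 1 was far below the other KO libraries, and WT replicate 1 was the only WT library with a value above 0. The KO mean was 12.1 ± 6.84 TPM (SD, n = 3) and the WT mean 0.267 ± 0.462 TPM. Gfi1b rose by 3.25 on the log2(TPM + 1) scale (SE 0.50, 95% confidence interval 2.04 to 4.46, limma adjusted p = 0.015), and 37 of the 1745 genes called higher rose by more. It passed the filter on low values through the KO libraries alone, so it had to differ to be tested. The size depends on the pseudocount because 2 WT libraries were listed at 0: it was 5.66 with a pseudocount of 0.1 and 1.61 with 5, called in both. The limma adjusted p was 0.065 or 0.091 without KO replicate 2 or 3 and 0.062 or 0.064 without WT replicate 2 or 3, with log2 differences from 2.92 to 3.11.

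Gfi1, the paralogue that serves neutrophil development, was expressed at a higher level and was called as well. It was at 55.4, 71.4 and 69.7 TPM in KO replicates 1 to 3 and at 44.5, 45.9 and 43.1 TPM in WT (log2 difference 0.54, SE 0.10, limma adjusted p = 0.023). The groups did not overlap. Gfi1b TPM came to 7.94%, 24.4% and 20.9% of Gfi1 TPM in KO replicates 1 to 3, and to 1.80% in WT replicate 1, with Gfi1b listed at 0 in the others. Kdm1a and Rcor1, which encode LSD1 and CoREST, were at 28.6 ± 1.91 and 62.5 ± 4.28 TPM in KO and at 30.4 ± 1.5 and 67.8 ± 4.02 TPM in WT (SD, n = 3; limma adjusted p = 0.38 and 0.28).

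Gata1 was weakly expressed in both groups and higher in KO. The gene (chromosome X, 7959260 to 7976663, minus strand) was at 2.4, 4.2 and 3.9 TPM in KO replicates 1, 2 and 3 and at 1.4, 0.8 and 1.1 TPM in WT replicates 1, 2 and 3. The groups did not overlap, and KO replicate 1 was again the lowest KO library. Means were 3.50 ± 0.964 TPM in KO and 1.10 ± 0.30 TPM in WT (SD, n = 3), a ratio of 3.18. Gata1 rose by 1.09 on the log2(TPM + 1) scale (SE 0.19, 95% confidence interval 0.62 to 1.55, limma adjusted p = 0.020). The difference was 0.47 with a pseudocount of 5, still called, and the adjusted p was 0.085 or 0.11 without KO replicate 2 or 3 and 0.072 or 0.077 without WT replicate 2 or 3.

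Gata2 (chromosome 6, 88193891 to 88207032, plus strand) went the other way without reaching the threshold. It was at 20.9, 20.2 and 20.6 TPM in KO replicates 1, 2 and 3 and at 36.5, 26 and 22.6 TPM in WT replicates 1, 2 and 3. All WT libraries lay above all KO libraries, WT replicate 1 far above the other WT libraries. The log2 difference was -0.42 (SE 0.16, 95% confidence interval -0.82 to -0.019, limma adjusted p = 0.12). Without WT replicate 1 it was -0.23 (adjusted p = 0.054), and no alternative run brought the adjusted p under 0.05.

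Gata1 was therefore also compared with Gata2 inside each library. The ratio of plain TPM is free of the library's total, while the tested log2 form, with 1 TPM added, is not. Gata1 TPM came to 11.5%, 20.8% and 18.9% of Gata2 TPM in KO replicates 1, 2 and 3, and to 3.84%, 3.08% and 4.87% in WT replicates 1, 2 and 3. Gata2 remained the more abundant of the pair in every library. On a log2 scale with 1 TPM added to both genes, the ratio was -2.29 ± 0.353 in KO and -3.79 ± 0.259 in WT (SD, n = 3), a difference of 1.5. The groups did not overlap, and p was 0.1 in a two-sided exact permutation test, the smallest value possible with 3 against 3 libraries.

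**Figure D2:**
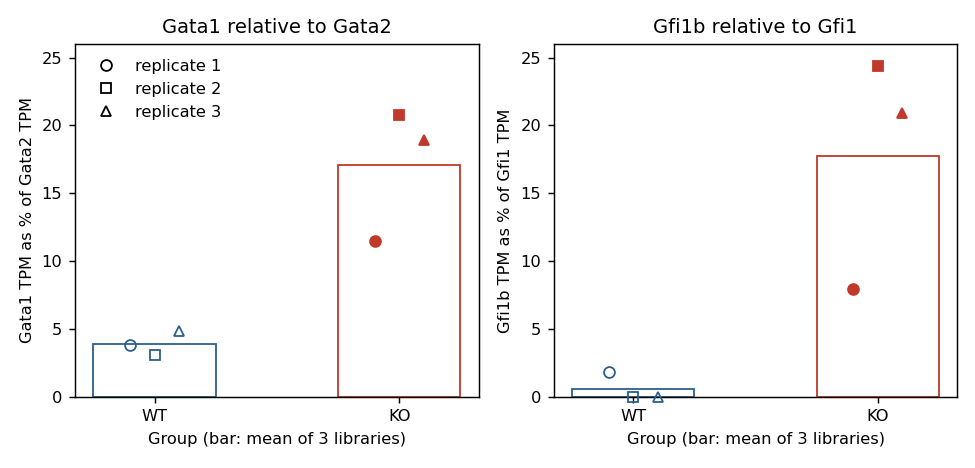
Gata1 TPM as a percentage of Gata2 TPM (left) and Gfi1b TPM as a percentage of Gfi1 TPM (right) in each library, with bars at the mean of 3 libraries. KO lies at 11.5% to 20.8% for Gata1 and at 7.94% to 24.4% for Gfi1b, above every WT library in both panels, and KO replicate 1 is the lowest KO point in both.

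Klf1, the red cell activator (chromosome 8, 84901982 to 84905291, plus strand), was higher in KO at a low level. It was at 3.6, 5.1 and 4.6 TPM in KO replicates 1, 2 and 3 and at 1.5, 1.3 and 2.2 TPM in WT replicates 1, 2 and 3, with no overlap. Means were 4.43 ± 0.764 and 1.67 ± 0.473 TPM (SD, n = 3), a ratio of 2.66. Klf1 rose by 1.03 on the log2(TPM + 1) scale (SE 0.16, 95% confidence interval 0.64 to 1.43, limma adjusted p = 0.016). With a pseudocount of 5 the difference was 0.50, still called. Leaving out KO replicate 2 or 3 gave an adjusted p of 0.070 or 0.093, and leaving out WT replicate 2 or 3 gave 0.062 or 0.057.

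Runx1 (chromosome 16, 92601466 to 92826074, minus strand) was the most abundant of the 4 called members. It was at 14.6, 20.6 and 18.2 TPM in KO replicates 1, 2 and 3 and at 11, 9.0 and 9.4 TPM in WT replicates 1, 2 and 3, with no overlap. Means were 17.8 ± 3.02 and 9.80 ± 1.06 TPM (SD, n = 3), a ratio of 1.82. Runx1 rose by 0.79 on the log2(TPM + 1) scale (SE 0.14, 95% confidence interval 0.46 to 1.12, limma adjusted p = 0.019). Leaving out KO replicate 2 or 3 gave an adjusted p of 0.070 or 0.10, and leaving out WT replicate 2 or 3 gave 0.071 or 0.076. An antisense gene model, Gm26626, shares exon sequence with Runx1 in GENCODE M21, and no source used here says whether counting used the strand, so reads of this pair may be mixed. Cbfb, the partner that RUNX proteins need to bind DNA firmly, was at 50.4 ± 1.73 TPM in KO against 49.0 ± 3.67 TPM in WT (limma adjusted p = 0.70). The paralogues were not called: Runx2 was at 9.07 ± 0.651 and 7.67 ± 0.208 TPM (adjusted p = 0.077), and Runx3 at 53.7 ± 7.27 TPM against 68.7 ± 3.52 TPM in WT (adjusted p = 0.054).

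The cofactor gene Zfpm1 (chromosome 8, 122281856 to 122337862, plus strand) was decided by WT replicate 1. It was at 6.0, 6.8 and 6.4 TPM in KO replicates 1, 2 and 3 and at 6.8, 4.2 and 4.0 TPM in WT replicates 1, 2 and 3. WT replicate 1 reached the highest KO value, while the other WT libraries lay below all KO libraries. The log2 difference was 0.33 (SE 0.18, 95% confidence interval -0.10 to 0.76, limma adjusted p = 0.22). Without WT replicate 1 it was 0.54 (adjusted p = 0.019), where limma called 21.6% of all genes higher, and without KO replicate 1 and WT replicate 1 it was 0.58 (adjusted p = 0.0033), where it called 28.4% higher.

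The members of the TAL1 complex other than the GATA factors showed small differences or none that could be measured. Tal1 (chromosome 4, 115056426 to 115071755, plus strand) was listed at 0.0 TPM in all 6 libraries, in tables that keep 1 decimal. Its paralogue Lyl1, which can pair with the same E proteins, was at 175.9 ± 4.85 TPM in KO against 177.0 ± 2.87 TPM in WT (SD, n = 3; limma adjusted p = 0.89). The other paralogue, Tal2, stayed at or below 0.2 TPM.

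Lmo2 (chromosome 2, 103957903 to 103981878, plus strand), the bridging protein that joins TAL1 to GATA factors, was at 148.2, 151.2 and 150.1 TPM in KO replicates 1, 2 and 3 and at 147.5, 155.2 and 152.8 TPM in WT replicates 1, 2 and 3. These ranges overlapped. The log2 difference was -0.019 (95% confidence interval -0.12 to 0.080, limma adjusted p = 0.77), which was the narrowest interval among the members. Ldb1 (chromosome 19, 46031525 to 46048145, minus strand), the LIM domain binding protein that dimerizes to link distant sites, was at 55.8, 53.6 and 52.9 TPM in KO replicates 1, 2 and 3 and at 61.0, 59.5 and 56.5 TPM in WT replicates 1, 2 and 3. Its groups did not overlap, with KO below WT. The log2 difference was -0.12 (95% confidence interval -0.25 to 0.002, limma adjusted p = 0.14), and it was called lower with library medians set equal (-0.18, adjusted p = 0.046). Exons of Ldb1 overlap those of Pprc1 on the opposite strand, which was at 6.0 to 9.2 TPM, so the same doubt holds for Ldb1.

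Nfe2 (chromosome 15, 103248212 to 103258403, minus strand) was at 82.7, 81.5 and 79.6 TPM in KO replicates 1, 2 and 3 and at 94.2, 78.3 and 81.7 TPM in WT replicates 1, 2 and 3. The WT values enclosed the KO values, and WT replicate 1 was the highest. The log2 difference was -0.055 (95% confidence interval -0.24 to 0.13, limma adjusted p = 0.63). Its small MAF partners were not called either: Mafk was at 18.1 ± 1.74 TPM in KO against 23.4 ± 2.57 TPM in WT (adjusted p = 0.056), and Mafg at 23.4 ± 0.436 and 24.7 ± 1.76 TPM (adjusted p = 0.45). Bach1, which competes with NFE2 for these partners and sites, was at 35.0 ± 2.01 TPM in KO against 32.8 ± 1.82 TPM in WT (adjusted p = 0.36).

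**Figure D3:**
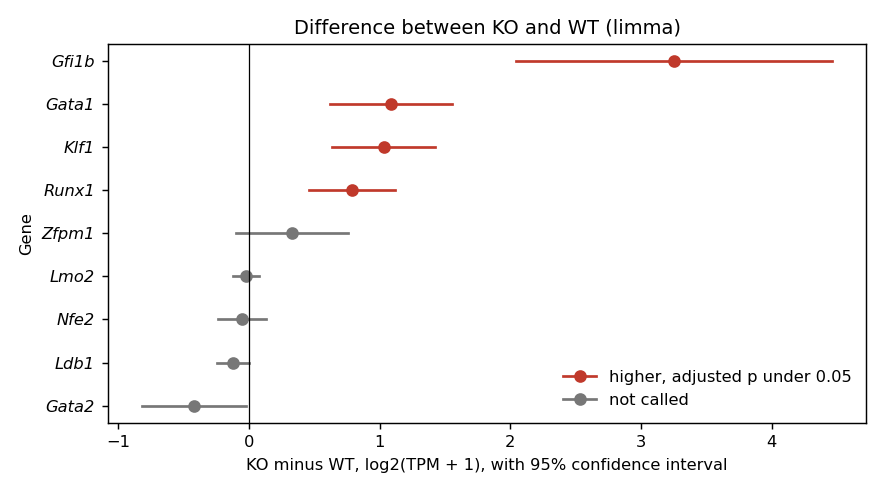
KO minus WT on the log2(TPM + 1) scale for the 9 tested members, with 95% confidence intervals from limma; red marks an adjusted p under 0.05. Gfi1b at 3.25, Gata1 at 1.09, Klf1 at 1.03 and Runx1 at 0.79 are called higher, and the interval of Gata2 ends at -0.019 without a call.

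Over the members, 4 had all KO values above all WT values and 2 had them below, beside 23.4% and 19.5% of all tested genes. KO replicate 1 was the lowest KO library for each of the 4 called members. It came to 27.5% of the mean of KO replicates 2 and 3 for Gfi1b, 59.3% for Gata1, 74.2% for Klf1 and 75.3% for Runx1. For the other 5 tested members it came to between 90.9% and 105%. This was not particular to the members: among genes called higher in the related lists it came to 43.6% for Pf4, 44.8% for Mpo, 52.4% for Rhd and 64.1% for Cd9. Chaf1b in KO replicate 1 was at 124% of the mean of the other KO libraries, at 17.7 TPM against 14.4 and 14.2 TPM. Whether the higher Chaf1b level in that library has a part in its lower values of these 4 members was not tested. Without KO replicate 1 the log2 differences were 3.8 for Gfi1b, 1.28 for Gata1, 1.15 for Klf1 and 0.92 for Runx1, with limma adjusted p-values of 0.0019, 0.0048, 0.0091 and 0.0056. Calls over all 13575 genes also rose without that library, to 2063 higher and 1619 lower, against 1745 and 830 with all libraries.

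**Figure D4:**
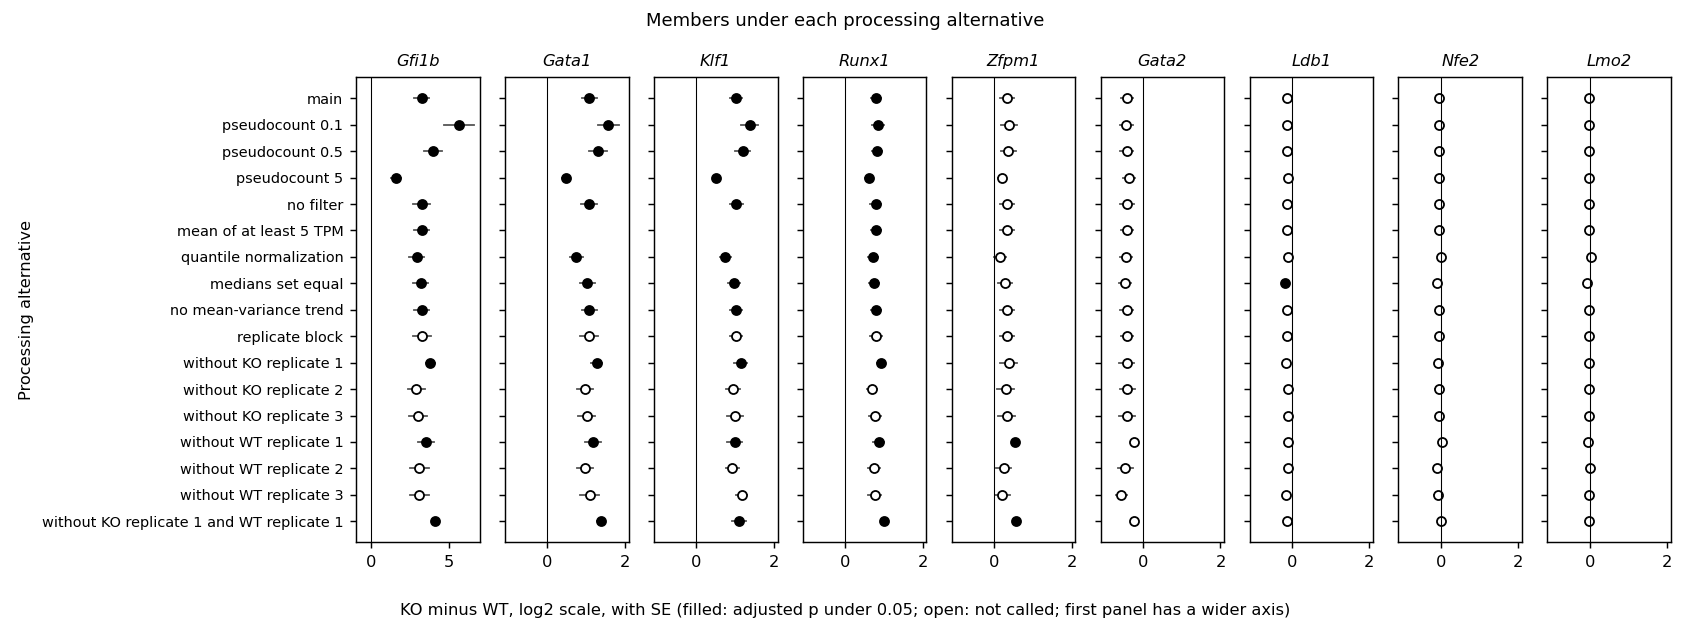
KO minus WT on the log2 scale with its SE for each tested member (columns) as reported and under the 16 alternatives (rows), filled where the adjusted p was under 0.05; the Gfi1b column has a wider axis. Gfi1b, Gata1, Klf1 and Runx1 stay above 0 in each row where they have a value. They turn open without KO replicate 2 or 3, without WT replicate 2 or 3 and with the replicate block. Gata1 and Klf1 have no value in the row with a mean of at least 5 TPM, a filter that leaves them out.

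Related genes were read from lists, beginning with paralogues and partners. Of 20 paralogues of the members, 9 were tested, 3 were higher (33.3%) and 1 was lower (11.1%), with a median log2 difference of -0.010 beside 0.007 over all tested genes. Those higher were Nfe2l2, the regulator of the antioxidant response (87.8 ± 8.45 TPM in KO, 62.6 ± 1.45 TPM in WT, limma adjusted p = 0.016), Gfi1, and Klf3 (12.5 ± 1.54 and 7.40 ± 1.30 TPM, 0.026), a repressor that KLF1 activates in red cells. Nfe2l1 was lower (31.1 ± 3.93 TPM in KO, 41.9 ± 4.39 TPM in WT, 0.047), and was not called with no filter or without the trend. Gata4, Gata5, Gata6, Zfpm2, Lmo3 and Ldb2 were listed at 0 in all libraries. Gata3 was at 0.1 to 0.2 TPM in KO and listed at 0 in WT. Lmo1, which did not pass the filter, was at 0.9, 2.3 and 1.6 TPM in KO replicates 1, 2 and 3. In WT replicates 1, 2 and 3 it was at 0.5, 0.4 and 0.4 TPM, without overlap. Of 30 partners and cofactors, 28 were tested, and 1 was higher and 1 lower, with a median of -0.056. The shares, 3.57% higher and 3.57% lower, were below those of all tested genes. The called genes encode a remodelling ATPase and a methyl-CpG-binding-domain protein: Chd4 was at 25.2 ± 0.907 TPM in KO against 21.5 ± 0.70 TPM in WT (limma adjusted p = 0.043), and Mbd3 at 67.7 ± 3.32 and 77.7 ± 1.17 TPM (0.046). Neither was called under quantile normalization (adjusted p = 0.052 and 0.057), Chd4 was not called with medians set equal, and Mbd3 was not called without the trend or with a minimum mean of 5 TPM. Hdac1, Hdac2, Mta2, Gatad2a and Gatad2b, which encode other proteins of the same NuRD complex, were tested and not called. Cbfa2t3, which encodes the ETO2 corepressor of the TAL1 complex, was at 6.50 ± 0.20 TPM in KO against 6.67 ± 0.231 TPM in WT (0.75).

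Among 14 tested transcription factors set beside the members, 3 were higher (21.4%, beside 12.9% of all tested genes) and none was lower, with a median of 0.13. Fli1, an ETS factor of megakaryocytes, was at 36.4, 43.7 and 41.1 TPM in KO replicates 1, 2 and 3 and at 26.8, 28.0 and 27.7 TPM in WT replicates 1, 2 and 3. The groups did not overlap, and Fli1 rose by 0.54 on the log2 scale (limma adjusted p = 0.014). Ikzf1 and Ikzf2, of the Ikaros family, were also higher, by 0.34 and 0.35 (limma adjusted p = 0.031 and 0.041). Under quantile normalization these were 0.21 and 0.19 without a call (adjusted p = 0.068 and 0.14), and Ikzf2 was not called with medians set equal or with no filter either. Spi1, which encodes PU.1, a myeloid factor that binds GATA1 and opposes it, was at 132.6 ± 6.31 TPM in KO against 133.4 ± 16.2 TPM in WT (adjusted p = 0.98).

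Genes that red cells use were mostly near 0 in both groups. Of 36 listed erythroid genes, 33 were in the tables, 21 stayed below 1 TPM in every library, and 11 were tested. Slc4a1, Ank1, Rhag and Kel, which encode proteins of the red cell membrane and its skeleton, were among 13 genes listed at 0 in all libraries. Epor, the erythropoietin receptor gene, was at 0.2 TPM in each KO library and at 0.1 TPM in each WT library, and Alas2, the red cell enzyme of haem synthesis, at 0.3 to 0.6 TPM over all 6.

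Of the 11 tested erythroid genes 3 were higher and 1 lower, with a median log2 difference of 0.51. These are 27.3% and 9.09% of the list, beside 12.9% and 6.11% of all tested genes. By level, 19.0% of tested genes with means between 1 and 10 TPM were higher and 1.33% lower, and 8.47% and 9.29% of those with means of 10 TPM or more. Rhd, the Rhesus antigen gene, was at 12.9, 26.8 and 22.4 TPM in KO replicates 1, 2 and 3 and at 1.0, 4.7 and 4.4 TPM in WT replicates 1, 2 and 3 (log2 difference 2.40, SE 0.46, limma adjusted p = 0.023). Here WT replicate 1 was the lowest WT library, and the groups did not overlap. Blvrb, which encodes biliverdin reductase B, went from 22.7 ± 6.99 to 53.7 ± 14.5 TPM and Car2, carbonic anhydrase, from 0.633 ± 0.493 to 2.47 ± 0.473 TPM (SD, n = 3; adjusted p = 0.032 and 0.025). With no filter the adjusted p of Blvrb was 0.051. Bpgm, the enzyme that makes 2,3-bisphosphoglycerate in red cells, was lower, at 16.9 ± 1.25 TPM in KO against 20.8 ± 0.954 TPM in WT (0.042). The adult globin genes were not called: Hba-a1 and Hba-a2, near-identical copies whose reads may be shared, were at 10.2 ± 2.37 and 8.40 ± 2.44 TPM in KO and at 5.97 ± 2.73 and 4.47 ± 1.40 TPM in WT (adjusted p = 0.13 and 0.087). Hbb-bt was at 1.57 ± 0.808 TPM in KO against 2.6 ± 0.30 TPM in WT (0.16), and Hbb-bs stayed at or below 0.9 TPM.

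Of 23 listed megakaryocyte genes, 12 were tested, with 4 higher (33.3%), 1 lower (8.33%) and a median log2 difference of 0.68, beside 12.9% higher and 6.11% lower over all tested genes. Pf4, the platelet factor 4 chemokine, was at 11.3, 28.8 and 23.0 TPM in KO replicates 1, 2 and 3 and at 0.3, 0.1 and 0.3 TPM in WT replicates 1, 2 and 3 (log2 difference 4.07, SE 0.32, limma adjusted p = 0.0082). As for Gfi1b, KO replicate 1 had the lowest KO value, 43.6% of the mean of the others, and the gene passed the filter through the KO libraries alone. Cd9, a tetraspanin of platelets and other cells, went from 58.8 ± 11.8 to 153.7 ± 37.3 TPM, F5, coagulation factor V, from 14.0 ± 3.41 to 34.6 ± 8.76 TPM, and Gp1bb, a subunit of the von Willebrand factor receptor, from 3.33 ± 1.17 to 8.47 ± 1.25 TPM (SD, n = 3; adjusted p = 0.016, 0.022 and 0.020). F2rl2, the thrombin receptor PAR3, was lower, at 32.3 ± 3.57 TPM in KO against 67.3 ± 25.9 TPM in WT (0.044), and was not called with no filter or without the trend.

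Defining genes of megakaryocytes stayed low. Itga2b, integrin αIIb or CD41, was at 5.4, 11.4 and 10.7 TPM in KO replicates 1, 2 and 3 and at 9.2, 5.3 and 3.6 TPM in WT replicates 1, 2 and 3 (adjusted p = 0.31). WT replicate 1 lay inside the KO range. Vwf, von Willebrand factor, was at 0.6, 1.4 and 1.2 TPM in KO and at 0.1, 0.0 and 0.0 TPM in WT. Gp9, another subunit of the von Willebrand factor receptor, was at 0.6 to 1.1 TPM in KO and 0.2 TPM in each WT library. Neither gene passed the filter. Gp6, Treml1, Rab27b and Mmrn1 were listed at 0 throughout. In these bulk libraries, more cells of a type and more RNA per cell cannot be told apart.

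GATA factors also serve mast cells, basophils and eosinophils, and those lists were read beside the members. Of 15 mast cell and basophil genes 6 were tested, and Mcpt8, a basophil protease, and Ms4a2, a chain of the IgE receptor, were higher, the latter without a call under quantile normalization (limma adjusted p = 0.068). The calls were 33.3% of the list's tested genes, with none lower, beside 12.9% higher and 6.11% lower over all tested genes. Mcpt8 was at 50.1, 102.8 and 91.1 TPM in KO replicates 1, 2 and 3 and at 16.0, 20.6 and 18.6 TPM in WT replicates 1, 2 and 3 (log2 difference 2.03, limma adjusted p = 0.014). Fcer1a, Prss34, Mcpt4, Tpsb2, Cd200r3 and Il1rl1 were listed at 0, and Cpa3, the mast cell carboxypeptidase, was at 0.5 to 1.3 TPM over all 6 libraries. Of 10 eosinophil genes 2 were tested and Siglecf was higher, at 19.1 ± 3.58 TPM in KO against 8.73 ± 1.19 TPM in WT (adjusted p = 0.015), while Epx, the eosinophil peroxidase gene, was at most 0.3 TPM. Siglecf alone is 50.0% of the tested eosinophil genes, beside 12.9% higher over all tested genes.

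The summed levels of the marker lists are set beside the members here. The erythroid list summed to 110.0 to 163.5 TPM in KO and 75.2 to 94.8 TPM in WT. Blvrb made 37.3 to 64.9 TPM of this sum in KO and 18.5 to 30.8 TPM in WT. Rhd made 12.9 to 26.8 TPM of it in KO and 1.0 to 4.7 TPM in WT. The eosinophil list summed to 18.4 to 27.2 TPM in KO and 10.3 to 12.6 TPM in WT. Siglecf made 15.3 to 22.4 TPM of this sum in KO and 7.9 to 10.1 TPM in WT. Neither the erythroid nor the eosinophil sums overlapped between groups. The mast cell and basophil sums overlapped, at 1108 to 1256 TPM in KO and 1065 to 1169 TPM in WT. Fcer1g alone made 960.1 to 1030.2 TPM of these sums in KO and 965.5 to 1069.0 TPM in WT. The megakaryocyte list summed to 275.0 to 429.9 TPM in KO and to 161.6, 170.1 and, in WT replicate 1, 440.6 TPM, above every KO library; Thbs1 made 157.8 TPM of that sum. Genes of T, NK and B cells summed to 26.7 to 32.5 TPM in KO and 17.0 to 20.8 TPM in WT. Among the 12 genes found, 2 were tested and both were higher, beside 12.9% of all tested genes. They were Cd79b (28.6 ± 2.76 TPM in KO, 18.8 ± 1.99 TPM in WT) and Cd79a, which passed the filter through the KO libraries alone. For Cd79a the called log2 difference of 0.42 was -0.12 under quantile normalization, without a call. Cd4, Cd8a, Ncr1, Ms4a1 and Ebf1 were listed at 0. Of 9 stromal and endothelial genes 4 were tested and 2 were higher (50.0%, beside 12.9% of all tested genes). These were Acta2 (71.4 ± 30.7 TPM in KO, 15.7 ± 4.32 TPM in WT) and Col1a1, which passed the filter through the KO libraries alone. This list summed to 104.0 to 168.7 TPM in KO and 76.0 to 100.9 TPM in WT. Pecam1, not called, made 63.4 to 66.2 TPM of this sum in KO and 60.8 to 79.1 TPM in WT. Cdh5 was at 0.5, 1.5 and 1.3 TPM in KO replicates 1, 2 and 3 and listed at 0 in WT. Kdr was listed at 0 in both groups. The part of other cell types in the members' values was not tested. Of 15 tested genes of the labelled cell type, acute myeloid leukaemia resembling granulocyte and monocyte progenitors, 6 were higher and 1 lower. These are 40.0% and 6.67% of the list, beside 12.9% and 6.11% of all tested genes. Elane, Mpo, Prtn3 and Ly6c2 were among those higher, with log2 differences of 1.22, 4.84, 0.53 and 0.36, and Hoxa9 was lower, at 174.0 ± 11.2 TPM in KO against 212.7 ± 8.47 TPM in WT (limma adjusted p = 0.029).

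**Figure D5:**
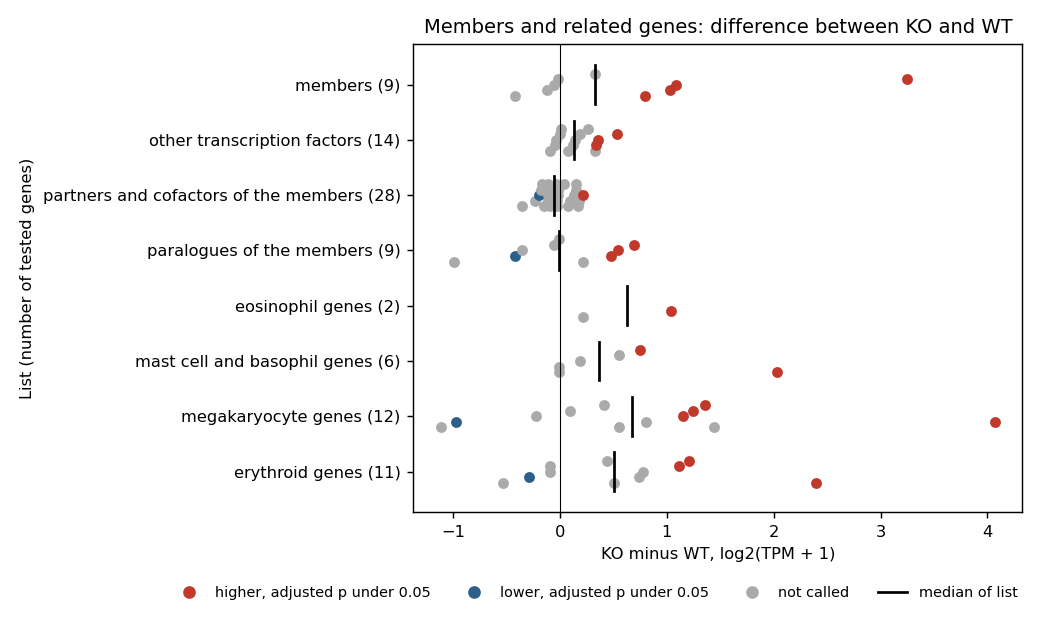
KO minus WT on the log2(TPM + 1) scale for each tested gene of the members and of 7 related lists, with the number of tested genes in brackets, the list's median as a black line and calls in red (higher) and blue (lower). Gfi1b at 3.25, Pf4 at 4.07, Rhd at 2.40 and Mcpt8 at 2.03 lie farthest right in their lists, while partners and cofactors lie close to 0.

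The calls named in the related lists rest on the same libraries as those of the members. Of the 101 distinct related genes tested, limma called 27 higher and 5 lower with all libraries, beside 12.9% and 6.11% of all tested genes. The numbers called were 1 without KO replicate 2 or without WT replicate 2, and 0 without KO replicate 3 or WT replicate 3, where 37 and 43 had an unadjusted p under 0.05. With both first replicates removed, a choice made after seeing the data, 50 were higher and 14 lower, beside 28.4% and 27.3% of all genes.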

How the data were processed

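The 6 libraries, 3 KO and 3 WT, were grouped by their titles. The labels' protocols describe stranded poly(A) libraries sequenced as 100 bp paired ends at a stated depth of about 120 M reads each. The submitters' processing notes name mm10 as the build and list 4 tools: featureCounts 1.6.2, STAR 2.6.1e, cutadapt 1.9.1 and Trim Galore 0.4.2. Annotation, strand setting and the step from counts to TPM: not given in the sources used here. TPM values were deposited by the authors for each gene symbol, to 1 decimal, summing to 999924 to 999935 in a library. A rise of abundant transcripts therefore lowers all others, and counting error is unknown. A replacement is mentioned in the file header of WT replicate 1 alone, and what it refers to was not stated.

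Differences were fitted with limma 3.58.1 under R 4.3.3 on log2(TPM + 1), for 13575 genes that had 1 TPM or more in 3 or more libraries. The model held genotype alone, used eBayes with a trend of variance on level, and p-values were two-sided and adjusted by Benjamini and Hochberg's method across these genes. The code was tested on simulated data. The members and the 10 lists were chosen with earlier results of these data known. The genes named were all members, defining genes, and from each list at most 4 called genes of lowest adjusted p in the direction with more calls and at most 2 in the other. Other genes, set beside a member or named as being near 0, and Thbs1, Fcer1g, Csf1r, Csf3r, Pecam1, Cdh5 and Lmo1, were picked after seeing their values. Some genes of the lists are counted but not reported here by name. Alternatives comprised pseudocounts of 0.1, 0.5 and 5, dropping the filter, a minimum mean of 5 TPM, quantile normalization, equal medians, a fit without the trend, a replicate block, and removal of each library. RefSeq (GRCm38.p6) gave positions and promoters, and GENCODE M21 gave UTRs and overlapping genes.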

Additional observations from a re-analysis of the deposited data

How the results depend on the processing

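The number of members called was 4 as reported and between 4 and 5 under other pseudocounts, no filter, both scalings and no trend. The added call, with medians set equal, was Ldb1, lower in KO. Over all 13575 genes limma called 2575 as reported, 2510 to 2568 with other pseudocounts and 2257 without the trend. It called 3068 under quantile normalization, 3412 with medians set equal, and 3397 of 22884 with no filter. The number of members called was 2 of 7 tested with a mean of at least 5 TPM, a filter that leaves out Gata1 and Klf1. Leaving out 1 library gave between 0 and 5 members, between 0 and 4850 of all genes against 2575, and between 0 and 44 related genes against 32. In each of the 4 cases with 0 members called (without KO replicate 2 or 3, or WT replicate 2 or 3), limma gave 4 or 6 members an unadjusted p under 0.05; the cause was not tested. For all genes the count was 1578 with a mean of at least 5 TPM, and 7569 without KO replicate 1 and WT replicate 1, where 64 related genes were called. Differences of Nfe2 and Lmo2, near 0, changed sign: Nfe2 ran from -0.11 to 0.023 when 1 library was left out, the latter without WT replicate 1, and was at 0.010 without both first replicates, and Lmo2 was at 0.040 under quantile normalization. The called difference of Cd79a, 0.42, reversed to -0.12 under quantile normalization; the cause was not tested. The log2 difference of the Gata1 to Gata2 ratio was 2.01 with a pseudocount of 0.1 and 0.84 with 5, since Gata1 is near 1 TPM in WT, and leaving out 1 library gave 1.37 to 1.70.

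With the replicate number as a block, limma called 0 members (5 with an unadjusted p under 0.05), 8 related genes and 333 of all genes. Whether same-numbered libraries are paired was not stated in the labels. Deviations of same-numbered libraries from the group means had correlations of -0.199, -0.145 and -0.164 across genes. No KO library correlated best with the WT library of its own number. With 3 libraries in a group and the first replicate apart in both groups, these values cannot decide whether the numbers pair samples. TPM keeps no depth, so counting error for members near 1 TPM could not be given.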
